A study of Mus musculus with 48 samples.

Results

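The genes described here code for 9 membrane transporters that move drugs and other small molecules across the surface of kidney cells: Abcb1a, Abcb1b, Abcc1, Abcc2, Abcc3, Abcc4, Abcg2, Slc47a1 and Mfsd2a. They were chosen by name as the main multidrug efflux pumps of the mouse kidney, together with the carrier through which tunicamycin is known to enter cells. All 9 were found, each as 1 row, among the 55487 gene IDs of a table of raw RNA-seq counts. The table covers 48 libraries from slices of kidney of male mice kept alive outside the body. The slices came from 2 inbred strains, C57BL/6J and DBA/2J, from which the BXD recombinant inbred lines were bred.

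Each strain was studied in 8 conditions with 3 libraries in each, which gives 16 groups. Untreated control slices, slices given tunicamycin and slices given cyclosporin A were each taken at 6 h and at 24 h. In the other two conditions slices were kept in normoxia (the ischemia model of the labels) or in normoxia and then hyperoxia (their reperfusion model). The titles give 24 h for both of these. They place the control and drug libraries under nephrotoxicity, and label no control for the ischemia and reperfusion libraries. The 24 h controls used below are therefore those of the nephrotoxicity set. Against them, oxygen cannot be told apart from other differences between the labelled sets. The doses, the oxygen given to the control slices, the time of the oxygen switch and the age of the mice are not given in the sources used here. The labels number the libraries of a group as biological replicates without saying whether each came from another mouse, so p-values measure only the spread between these libraries. Tunicamycin blocks N-linked glycosylation in the endoplasmic reticulum, and cyclosporin A is a calcineurin inhibitor that is toxic to the kidney.

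ABC transporters use ATP to pump substrates out of cells. P-glycoprotein is a single gene in humans and a pair of genes in mice, Abcb1a and Abcb1b. In the proximal tubule, the nephron segment that secretes drugs, P-glycoprotein, MRP2 (Abcc2), MRP4 (Abcc4), BCRP (Abcg2) and the proton-coupled cation exchanger MATE1 (Slc47a1) sit in the apical membrane and release their substrates into the urine. MRP1 (Abcc1) and MRP3 (Abcc3) sit in the basolateral membrane of polarized epithelia and pump toward the blood. Cyclosporin A is both a substrate and an inhibitor of P-glycoprotein. Mfsd2a carries lysophosphatidylcholine with bound omega-3 fatty acids into cells, and cells that lack it resist tunicamycin.

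Library totals ranged from 5619309 to 25137581 counts, and the lowest, DBA/2J normoxia-hyperoxia replicate 2, was followed by one of 12384733. The lowest count of any member in any library was 13, for Abcb1a. All 9 members passed the filter on low counts in every comparison. Defining markers of the kidney were present: none of 8 proximal tubule markers (Lrp2, Cubn, Slc34a1, Slc5a2, Slc5a12, Aqp1, Slc22a6 and Slc7a13) was at 0 in any library. Of 3 liver and gut genes, Fabp2 was at 0 in all 48 libraries, while Alb (up to 6.77 CPM) and Apoa2 (up to 4.07 CPM) were at 0 in none. The share of mitochondrial counts differed between groups, from 3.44% in DBA/2J tunicamycin at 24 h to 23.9% in C57BL/6J normoxia.

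On GRCm38 with the GENCODE M21 annotation, Abcb1a (ENSMUSG00000040584, chr5:8660077-8748575, plus strand) and Abcb1b (ENSMUSG00000028970, chr5:8798147-8866315, plus strand) lie next to each other, 49571 bases apart. Abcc1 lies at chr16:14361558-14475737 (plus), Abcc2 at chr19:43782192-43840740 (plus), Abcc3 at chr11:94343295-94392997 (minus) and Abcc4 at chr14:118482692-118706219 (minus). Abcg2 lies at chr6:58584523-58695676 (plus), Slc47a1 at chr11:61343401-61378345 (minus) and Mfsd2a at chr4:122946850-122961188 (minus). The counts are of reads over the exons of each gene. The P-glycoprotein genes are near-identical in places: 17% of the 50-base windows of the Abcb1a transcript and 18.3% of those of Abcb1b also occur in the other gene or in Abcb4, so the split of reads between them is uncertain. Abcc2 shared 0.313% of its windows with other genes and the other 6 members shared none. An antisense gene, Gm5106, shares 143 exonic bases with Abcb1b and held 51 counts in all 48 libraries together. Gm42686, also on the opposite strand, shares 553 exonic bases with Abcb1a and held 1 count. The strand setting of the counts is not given, so these low counts do not show how reads over the shared bases were assigned.

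Promoter windows of 300 bases around the start of transcription were found for 6 of the 9 members in RefSeq (GRCm38.p6). The windows of 3 members are shown, because their RefSeq starts are also GENCODE transcript starts and their transcripts changed with culture time and oxygen. Each reads 5′ to 3′ on the gene's strand, and capitals mark CCAAT boxes (the NF-Y motif CCAAT), GC boxes (GGGCGG) and TATA boxes (TATAAA) on either strand.
Abcb1b, chr5:8797897-8798196, plus: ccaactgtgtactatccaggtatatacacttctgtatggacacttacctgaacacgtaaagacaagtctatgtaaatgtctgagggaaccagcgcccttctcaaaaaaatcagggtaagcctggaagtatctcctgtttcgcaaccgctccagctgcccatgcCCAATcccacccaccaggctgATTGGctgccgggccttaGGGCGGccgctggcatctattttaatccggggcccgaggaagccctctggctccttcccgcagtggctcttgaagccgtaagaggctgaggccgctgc
Abcc4, chr14:118706170-118706469, minus: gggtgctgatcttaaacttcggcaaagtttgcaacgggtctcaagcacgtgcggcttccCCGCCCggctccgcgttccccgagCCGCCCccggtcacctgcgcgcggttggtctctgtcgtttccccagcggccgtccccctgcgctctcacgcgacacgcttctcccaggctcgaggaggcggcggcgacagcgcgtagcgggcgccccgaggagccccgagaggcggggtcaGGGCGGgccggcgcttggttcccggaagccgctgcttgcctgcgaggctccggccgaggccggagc
Mfsd2a, chr4:122961139-122961438, minus: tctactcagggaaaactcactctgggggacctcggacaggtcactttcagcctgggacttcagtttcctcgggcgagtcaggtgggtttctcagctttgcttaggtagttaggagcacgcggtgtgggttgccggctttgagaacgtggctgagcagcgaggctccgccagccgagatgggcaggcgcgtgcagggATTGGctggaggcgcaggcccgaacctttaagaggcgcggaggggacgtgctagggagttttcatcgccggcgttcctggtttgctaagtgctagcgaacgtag

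Positions below are those of a motif's leftmost base, with negative numbers before the start of transcription. The Abcb1b window held a CCAAT box on each strand, at -87 and -66, a GC box at -48 and the hypoxia response element core ACGTG on the reverse strand at -198. The Abcc4 window was rich in G and C (72.7%, against 55% for Abcb1b and 60.3% for Mfsd2a) and held 3 GC boxes, at -191, -167 and -16. It also held the core of an antioxidant response element (TGACNNNGC) at -25 and an E-box (CACGTG) at -205, which contains ACGTG on both strands. The Mfsd2a window held 1 CCAAT box at -54 and the core ACGTG at -107 and -9. The core of the aryl hydrocarbon response element, GCGTG, lay at -101 and -94 in the Abcc4 window and at -135 and -64 in that of Mfsd2a. On either strand, CCAAT occurred in 37.4% of all 32851 RefSeq promoter windows of this length and GGGCGG in 35.7%. The shares were 12.4% for TGACNNNGC, 32.4% for GCGTG, 19.6% for ACGTG and 7.15% for CACGTG. These matches describe the letters of the windows and were not tested as binding sites.

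Levels are given as CPM, a gene's count scaled by the total count of its library. The transporters differed widely in how far their levels moved over the 16 groups. Slc47a1 had the widest range of group means, 106-fold from 8.88 CPM in C57BL/6J normoxia-hyperoxia to 938 CPM in DBA/2J normoxia. The range was 41.6-fold for Abcc2, 30.1-fold for Abcc1, 21.8-fold for Abcg2, 12.7-fold for Abcc3, 12.3-fold for Abcb1b, 9.75-fold for Abcc4, 8.62-fold for Abcb1a and 4.32-fold for Mfsd2a. When the 16 groups were ordered by their means, most neighbours in the order overlapped in their libraries: 14 of 15 neighbouring pairs for Abcb1a, Abcc4 and Mfsd2a, 13 for Abcc2, 12 for Abcb1b, Abcc1 and Abcc3, and 11 for Abcg2 and Slc47a1. Between genes, levels were compared per kilobase of exon. The median group level was 31.4 CPM per kilobase for Slc47a1, 12.9 for Abcg2, 10.4 for Abcc2, 9.23 for Abcc1, 6.99 for Abcc4 and 6.5 for Mfsd2a. It was 1.04 for Abcb1a, 0.919 for Abcc3 and 0.785 for Abcb1b, the least abundant members on this scale.

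**Figure D1:**
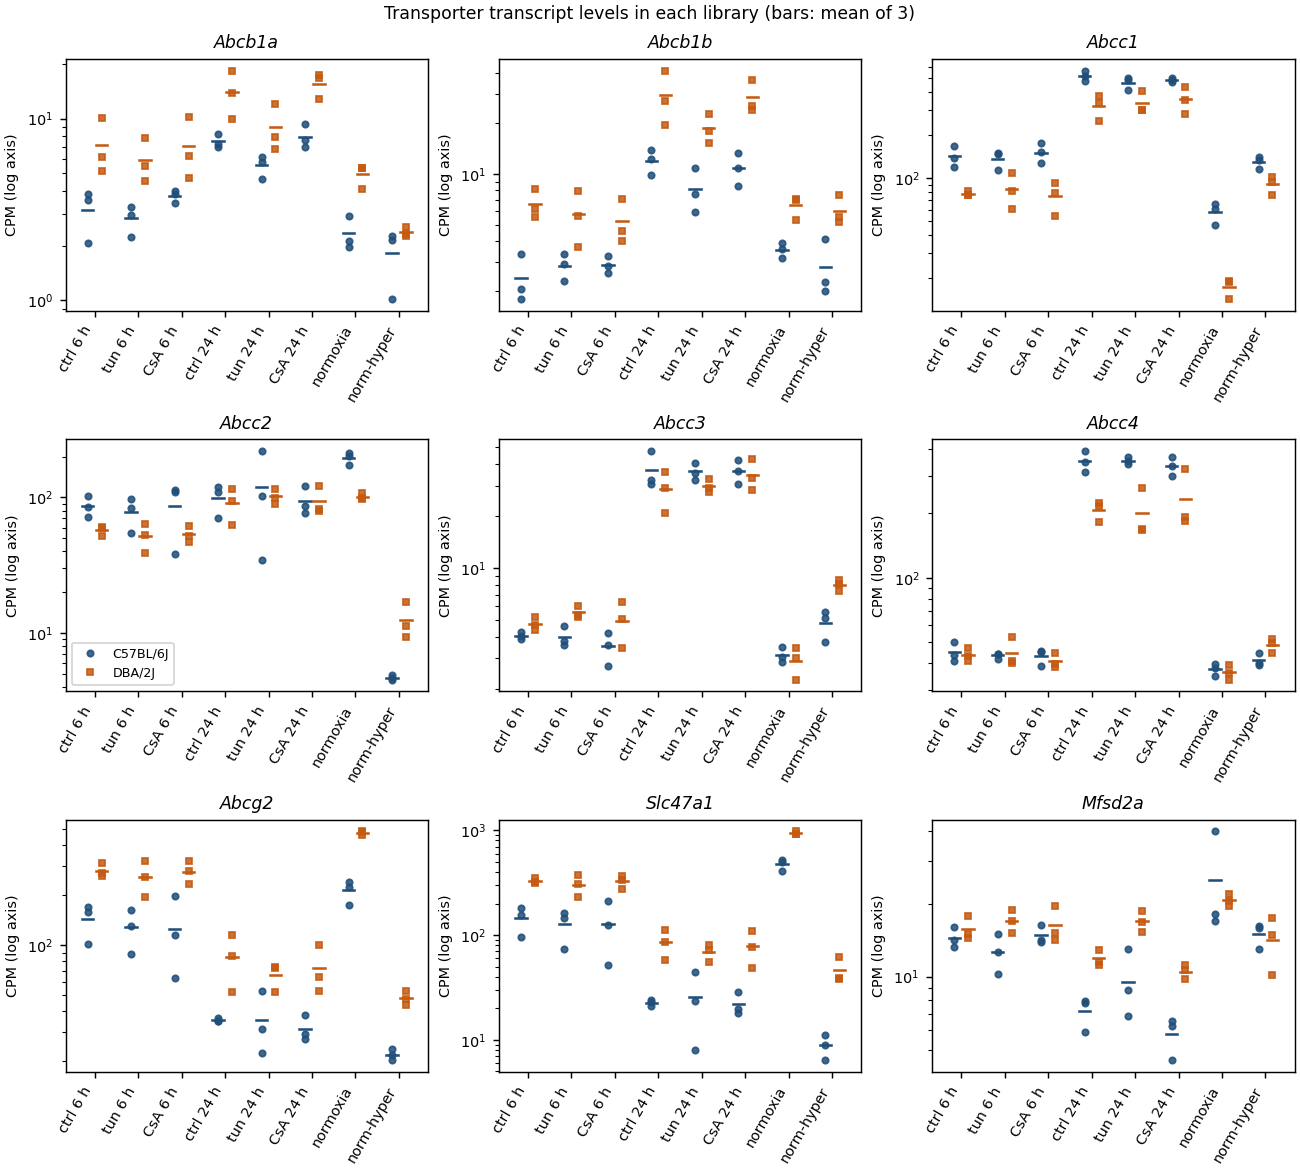
Level of each transporter in every library, in CPM on a log axis, by condition (ctrl, control; tun, tunicamycin; CsA, cyclosporin A; norm-hyper, normoxia-hyperoxia). Circles are C57BL/6J and squares DBA/2J libraries, and bars are means of 3; Slc47a1 and Abcg2 peak in normoxia, and Abcc1, Abcc3 and Abcc4 in the 24 h controls and drug groups.

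Each comparison between conditions was fitted with edgeR's quasi-likelihood test on its own 12 libraries, and genes with a Benjamini-Hochberg adjusted p under 0.05, taken over all genes tested, were called changed. Between 6 h and 24 h in control slices, 8 of the 9 members changed, beside 72% of all 16962 genes tested. Of these, 5 rose (34.7% of all genes did) and 3 fell (37.4%). Their median log2 fold change was 0.90, against -0.02 for all genes. In normoxia against the 24 h control all 9 members changed, beside 82% of 17375 genes: 4 were higher (42.4% of all genes) and 5 lower (39.7%), with a median of -1.32 against 0.05. In normoxia-hyperoxia against the 24 h control all 9 changed as well, beside 68.2% of 17256 genes, with 1 higher (34.1%) and 8 lower (34.1%). The median of the members was then -2.01 and that of all genes 0.00. Between normoxia-hyperoxia and normoxia 8 members changed, beside 73.5% of 17228 genes, with 3 higher (37%), 5 lower (36.5%) and medians of -0.73 and 0.02. Most of the genes tested were called in these comparisons, so the count of members called is near the background. The direction and size for each member are given below. The 4 comparisons share control or normoxia libraries and are not independent of one another.

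**Figure D2:**
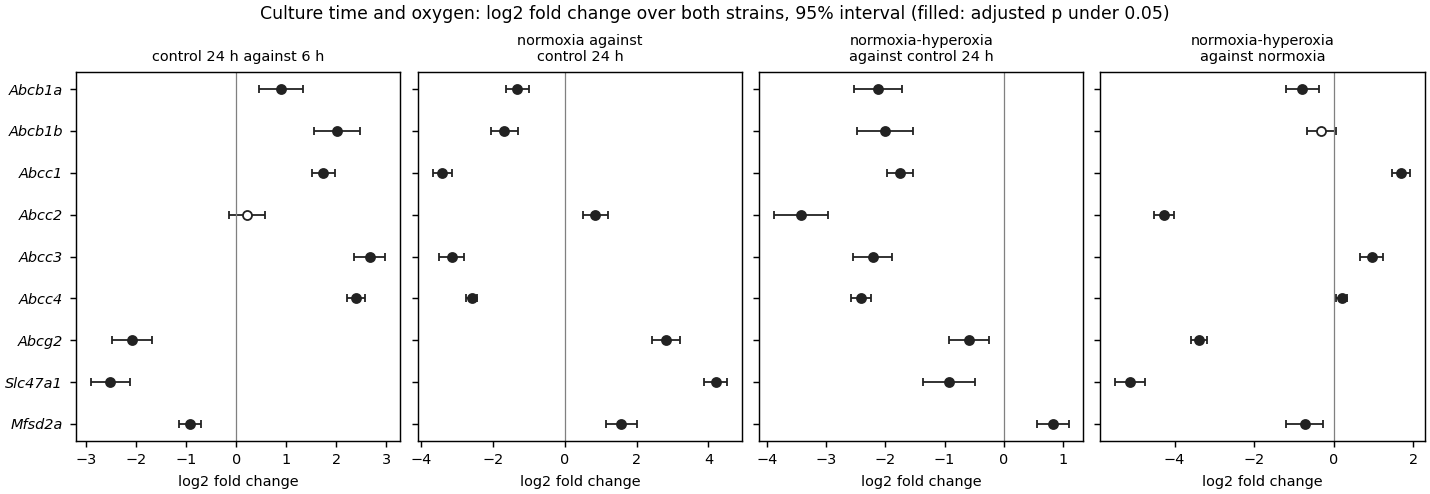
Log2 fold change of each transporter over both strains with its 95% interval, in the comparison of culture times and in the 3 comparisons of oxygen conditions. Filled circles passed an adjusted p under 0.05 and open circles did not; Abcg2 and Slc47a1 lie on the opposite side of 0 from Abcc1, Abcc3 and Abcc4 in every panel but that of normoxia-hyperoxia against control 24 h.

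Slc47a1 (MATE1), the apical exchanger that hands organic cations such as metformin to the urine, held 182, 96.4 and 156 CPM in the C57BL/6J controls at 6 h and 20.9, 23.8 and 23 CPM at 24 h. In the same strain it held 521, 412 and 498 CPM in normoxia but 6.39, 11.2 and 9.02 CPM in normoxia-hyperoxia. All 4 sets of C57BL/6J libraries were apart from one another, with normoxia highest and normoxia-hyperoxia lowest. The DBA/2J libraries held 313, 321 and 352 CPM at 6 h, 112, 57.6 and 86.3 at 24 h, 922, 914 and 979 in normoxia and 62.2, 38.1 and 38.6 in normoxia-hyperoxia. In DBA/2J the normoxia-hyperoxia libraries overlapped the 24 h controls, and the other sets were apart. Over both strains Slc47a1 fell by 2.52 ± 0.18 (SE) on the log2 scale between 6 h and 24 h (5.75-fold, edgeR adjusted p = 1.2e-07). It was 18.4-fold higher in normoxia than in the 24 h control (log2 fold change 4.20 ± 0.15, adjusted p = 2.3e-11) and 34.7-fold lower in normoxia-hyperoxia than in normoxia (adjusted p = 2.64e-11). Normoxia-hyperoxia lay 1.9-fold below the 24 h control (log2 fold change -0.93 ± 0.20, adjusted p = 0.0015). These are bulk slices, in which fewer cells of a type and less RNA per cell cannot be told apart.

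Abcg2 (BCRP), an apical pump for urate, sulfated conjugates and many anticancer drugs, went the same way as Slc47a1 with a smaller range. C57BL/6J controls held 171, 102 and 158 CPM at 6 h and 35.1, 34.9 and 36.5 CPM at 24 h, while normoxia libraries held 240, 176 and 225 and normoxia-hyperoxia libraries 20.3, 21.7 and 23.7. DBA/2J controls held 262, 272 and 311 CPM at 6 h and 116, 52 and 85.8 at 24 h, followed by 481, 462 and 486 in normoxia and 52.7, 47.2 and 43.7 in normoxia-hyperoxia. Normoxia was the highest set in both strains, and the 24 h controls lay below every 6 h control of their strain. Abcg2 fell 4.24-fold between 6 h and 24 h (log2 fold change -2.08 ± 0.18, edgeR adjusted p = 8.75e-07), and was 7.04-fold higher in normoxia than in the 24 h control (adjusted p = 3.02e-08). It was 10.5-fold lower in normoxia-hyperoxia than in normoxia (adjusted p = 1.32e-13). Against the 24 h control, normoxia-hyperoxia was 1.5-fold lower (log2 fold change -0.59 ± 0.16, adjusted p = 0.00558), with libraries apart in C57BL/6J and overlapping in DBA/2J. By strain the test was passed in DBA/2J (log2 fold change -0.68 ± 0.22, adjusted p = 0.0203) and not in C57BL/6J (-0.50 ± 0.22, adjusted p = 0.0756), and the difference between the strains did not pass (adjusted p = 0.846).

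The proximal tubule markers moved with both genes. All 8 fell between 6 h and 24 h, all 8 were higher in normoxia, 5 of 8 were lower in normoxia-hyperoxia than in the 24 h control, and all 8 were lower in normoxia-hyperoxia than in normoxia. Their summed level in C57BL/6J ran from 2340 to 4770 CPM at 6 h, 381 to 581 at 24 h, 4990 to 7400 in normoxia and 155 to 279 in normoxia-hyperoxia. In DBA/2J it ran from 6000 to 7020, from 915 to 2000, from 12300 to 14000 and from 590 to 874 CPM in the same order. The part of these shifts in the levels of Slc47a1 and Abcg2 was not tested. The markers of tubular injury (Havcr1, Lcn2, Krt20 and Sox9) moved the other way in 3 of these comparisons: all 4 rose between 6 h and 24 h, all 4 were lower in normoxia, and all 4 were higher in normoxia-hyperoxia than in normoxia. Against the 24 h control, 1 of the 4 was higher and 3 were lower in normoxia-hyperoxia. The 4 markers of the loop of Henle and distal tubule and the 4 of the collecting duct all fell between 6 h and 24 h and were all higher in normoxia and in normoxia-hyperoxia than in the 24 h control. Between the oxygen conditions 2 and 3 of them, respectively, were higher in normoxia-hyperoxia and none was lower.

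Markers of cells outside the tubule moved as well. In normoxia-hyperoxia against normoxia, where Abcc1, Abcc3 and Abcc4 were higher, 5 of 5 endothelial, 5 of 5 immune, 3 of 3 podocyte and 2 of 3 fibroblast and pericyte markers were higher too, beside 37% of all genes. Summed endothelial levels of C57BL/6J libraries lay between 635 and 903 CPM in normoxia and between 1160 and 1640 CPM in normoxia-hyperoxia. Those of DBA/2J libraries lay between 325 and 550 CPM and between 1090 and 1560 CPM. The mean immune sum was 82.5 CPM in normoxia and 113 CPM in normoxia-hyperoxia for C57BL/6J, and 59.4 and 208 CPM for DBA/2J (n = 3 each), with libraries apart in both strains. Between 6 h and 24 h, where the same 3 transporters rose, 3 of 5 endothelial, 3 of 5 immune, 3 of 3 podocyte and 2 of 3 fibroblast and pericyte markers fell, and 1 endothelial and 1 immune marker rose. In normoxia against the 24 h control 1 endothelial and 3 immune markers were higher, and 2 endothelial, 1 immune, 3 podocyte and 1 fibroblast and pericyte marker were lower. In normoxia-hyperoxia against the 24 h control 3 endothelial, 4 immune, 3 podocyte and 1 fibroblast and pericyte marker were higher, and 1 endothelial, 1 immune and 1 fibroblast and pericyte marker were lower. Cd3e, an immune marker, was at 0 in 1 library, and no other of these 16 markers was at 0 in any. The part of these shifts in the levels of the transporters was not tested.

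**Figure D3:**
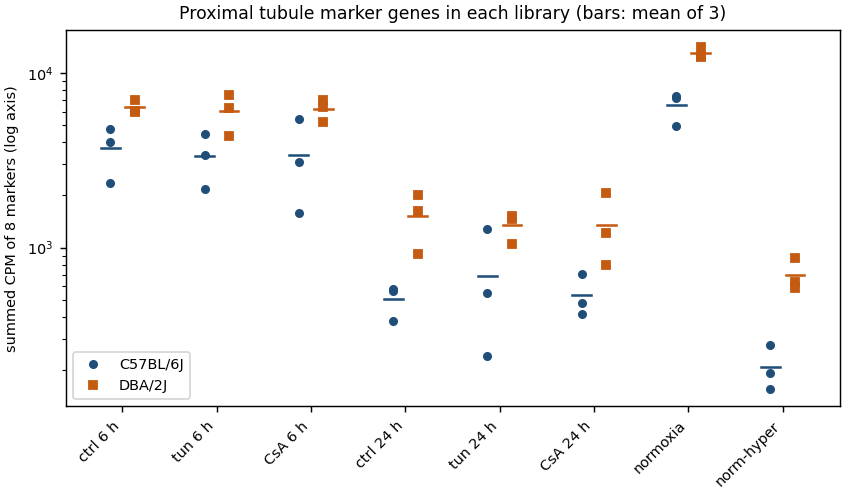
Summed level of 8 proximal tubule marker genes in every library, in CPM on a log axis, by condition and strain (abbreviations: ctrl, control; tun, tunicamycin; CsA, cyclosporin A; norm-hyper, normoxia-hyperoxia). Points are libraries and bars are means of 3; the sum is highest in normoxia (mean 13000 CPM in DBA/2J and 6530 in C57BL/6J) and lowest in normoxia-hyperoxia (700 and 208).

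Abcc2 (MRP2), the apical pump for glucuronide and glutathione conjugates, did not pass the test for culture time alone. C57BL/6J controls held 102, 72 and 85.5 CPM at 6 h and 70.3, 109 and 119 CPM at 24 h, and DBA/2J controls 51.6, 59.1 and 60.8 CPM at 6 h and 116, 62.3 and 94.3 CPM at 24 h. The libraries of both times overlapped in C57BL/6J, and in DBA/2J every 24 h library lay above the 6 h ones. The log2 fold change over both strains was 0.22 ± 0.16 (95% interval -0.14 to 0.58, edgeR adjusted p = 0.244). The test was passed without DBA/2J control 24 h replicate 2, without a filter on low counts and with scaling by library totals alone. In normoxia Abcc2 held 212, 174 and 202 CPM in C57BL/6J and 99.7, 97.1 and 107 CPM in DBA/2J, and in normoxia-hyperoxia 4.9, 4.54 and 4.69 CPM and 16.9, 9.43 and 11.3 CPM. The normoxia-hyperoxia libraries were far below all others in both strains. Abcc2 was 19.1-fold lower in normoxia-hyperoxia than in normoxia (log2 fold change -4.26 ± 0.12, adjusted p = 7.88e-13) and 10.8-fold lower than in the 24 h control (adjusted p = 5.26e-08). Normoxia was 1.8-fold above the 24 h control over both strains (adjusted p = 0.000468). By strain the fold was 2.3 in C57BL/6J, and 1.4 with overlapping libraries in DBA/2J (adjusted p = 0.0707). The difference between the strains did not pass (interaction log2 -0.71 ± 0.32, adjusted p = 0.153).

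The fall of Abcc2 from normoxia to normoxia-hyperoxia was 41.8-fold for C57BL/6J and 8.74-fold for DBA/2J. This difference between strains passed its own test (interaction, DBA/2J minus C57BL/6J, log2 2.26 ± 0.22, edgeR adjusted p = 9.41e-05). In the same comparison 3 of the 9 members had an interaction, beside 18.2% of all genes. The second was Slc47a1, which fell 53.4-fold in C57BL/6J but 22.6-fold in DBA/2J (log2 1.24 ± 0.30, adjusted p = 0.0141). With all 48 libraries in one fit this interaction of Slc47a1 no longer passed (adjusted p = 0.137). The third was Abcc1, which rose 2.25-fold in C57BL/6J but 4.63-fold in DBA/2J (log2 1.04 ± 0.20, adjusted p = 0.00396). Among the marker lists, 5 of 5 immune markers had an interaction in the same direction (median log2 1.16), as did 1 marker each of the proximal tubule, endothelium, fibroblast and pericyte, injury and liver and gut lists. No marker had one in the other direction, and their part in these differences was not tested.

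Abcc4 (MRP4), an apical pump for cyclic nucleotides, prostaglandins and antiviral drugs, was set apart by its 24 h controls. In C57BL/6J it held 40.9, 50.1 and 43.6 CPM at 6 h, 392, 314 and 347 CPM at 24 h, 37.8, 34.8 and 39.5 CPM in normoxia and 39.1, 44.6 and 39.9 CPM in normoxia-hyperoxia. In DBA/2J the values were 40.7, 47 and 43.2 CPM, then 182, 225 and 216 CPM, 33.4, 39.1 and 35.9 CPM, and 51.8, 44.5 and 49.7 CPM. The 24 h control libraries were above every other of these sets in both strains, and they did not overlap between strains. Abcc4 rose 5.26-fold between 6 h and 24 h (log2 fold change 2.40 ± 0.08, edgeR adjusted p = 2.53e-11). It was 6.08-fold lower in normoxia (adjusted p = 3.98e-14) and 5.34-fold lower in normoxia-hyperoxia (adjusted p = 1.24e-11) than in the 24 h control. Between these oxygen conditions it moved by 1.15-fold (log2 fold change 0.20 ± 0.07, adjusted p = 0.0136), a call lost without DBA/2J normoxia-hyperoxia replicate 1 (adjusted p = 0.0643) and with all 48 libraries in the fit (0.0599). By strain it passed in DBA/2J (0.27 ± 0.10, adjusted p = 0.0223) and not in C57BL/6J (0.14 ± 0.09, adjusted p = 0.224), where the libraries overlapped, and the difference between strains did not pass (adjusted p = 0.545).

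Abcc3 (MRP3), a basolateral pump for glucuronides and bile acids, shared this pattern at a lower level. C57BL/6J libraries held 4.03, 3.89 and 4.24 CPM at 6 h and 30.8, 32.3 and 47.7 CPM at 24 h, and DBA/2J libraries 4.66, 5.18 and 4.35 CPM and 20.9, 29 and 36.1 CPM. In normoxia the ranges were 2.86 to 3.47 CPM in C57BL/6J and 2.25 to 3.44 CPM in DBA/2J, and in normoxia-hyperoxia 3.73 to 5.53 and 7.37 to 8.54 CPM. Every 24 h control was above every library of the other 3 conditions. Abcc3 rose 6.37-fold between 6 h and 24 h (log2 fold change 2.67 ± 0.14, edgeR adjusted p = 1.2e-09), the largest rise among the members. It was 8.91-fold lower in normoxia (adjusted p = 3.55e-10) and 4.65-fold lower in normoxia-hyperoxia (adjusted p = 2.96e-08) than in the 24 h control, and 1.93-fold higher in normoxia-hyperoxia than in normoxia (adjusted p = 1.52e-05).

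Abcc1 (MRP1), the basolateral pump for glutathione conjugates and leukotriene C4, held 119, 167 and 139 CPM in C57BL/6J at 6 h and 567, 477 and 518 CPM at 24 h. In DBA/2J it held 76.5, 80.9 and 75.6 CPM at 6 h and 252, 377 and 335 CPM at 24 h. The levels in normoxia were 46.6, 66 and 60.4 CPM in C57BL/6J and 14.1, 19.1 and 18.8 CPM in DBA/2J, the lowest of these 4 conditions in each strain. In normoxia-hyperoxia they were 141, 134 and 115 CPM and 75.8, 102 and 93.8 CPM. Abcc1 rose 3.36-fold between 6 h and 24 h (log2 fold change 1.75 ± 0.10, edgeR adjusted p = 2.37e-09). Against the 24 h control it was 10.7-fold lower in normoxia (adjusted p = 1.43e-11) and 3.36-fold lower in normoxia-hyperoxia (adjusted p = 3.57e-09). From normoxia to normoxia-hyperoxia it rose 3.23-fold (adjusted p = 2.41e-09), unlike Abcc2, Abcg2 and Slc47a1.

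The difference between normoxia and the 24 h control was not the same in both strains for 3 of the 9 members, beside 17% of all genes. Abcc1 fell 7.78-fold in C57BL/6J but 14.8-fold in DBA/2J (interaction log2 -0.93 ± 0.23, edgeR adjusted p = 0.0159). Abcc4 fell 8.07-fold in C57BL/6J but 4.58-fold in DBA/2J (log2 0.82 ± 0.14, adjusted p = 0.00149). Slc47a1 rose 24.6-fold in C57BL/6J but 13.8-fold in DBA/2J (log2 -0.83 ± 0.26, adjusted p = 0.0479). The interaction of Slc47a1 was near the threshold: it was lost on leaving out any of 9 of the 12 libraries, with adjusted p from 0.0689 to 0.108, and with all 48 libraries in the fit (0.342). In normoxia-hyperoxia against the 24 h control 1 member, Abcc4, had an interaction, beside 1.43% of all genes. It fell 7.44-fold in C57BL/6J but 3.84-fold in DBA/2J (log2 0.96 ± 0.15, adjusted p = 0.00722). Without C57BL/6J control 24 h replicate 1, 2 members passed this test. Both interactions of Abcc4 rest on the same 24 h controls, in which C57BL/6J held 351 ± 38.9 CPM and DBA/2J 208 ± 22.6 CPM (mean ± SD, n = 3), while the strains overlapped in normoxia. Markers had interactions with normoxia too, all negative like those of Abcc1 and Slc47a1: 2 of 8 of the proximal tubule, 2 of 4 of the loop of Henle and distal tubule, 3 of 5 immune, 1 of 3 fibroblast and pericyte and 1 of the 2 liver and gut markers tested. No marker had an interaction in normoxia-hyperoxia against the 24 h control. The part of these shifts was not tested. The response to culture time had no interaction among the 9 members at the adjusted threshold, beside 0.69% of all genes, and 3 members had an unadjusted p under 0.05. DESeq2 called 1 member, Abcc4, and edgeR called 1 without C57BL/6J control 6 h replicate 2.

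The P-glycoprotein genes were scarcer. Abcb1b held 1.79, 3.33 and 2.07 CPM in C57BL/6J controls at 6 h and 12.3, 9.83 and 13.9 CPM at 24 h. In DBA/2J it held 5.53, 8.18 and 6.18 CPM at 6 h and 41.3, 19.6 and 27.3 CPM at 24 h. No library of one time overlapped the other within a strain. Abcb1b rose 4.06-fold with time (log2 fold change 2.02 ± 0.21, edgeR adjusted p = 1.73e-06), and was 3.23-fold lower in normoxia (adjusted p = 9.05e-07) and 4.03-fold lower in normoxia-hyperoxia (adjusted p = 3.27e-06) than in the 24 h control. Between the oxygen conditions the log2 fold change was -0.31 ± 0.18 (95% interval -0.68 to 0.07, adjusted p = 0.124), and the test was passed without C57BL/6J normoxia-hyperoxia replicate 3 or without DBA/2J normoxia-hyperoxia replicate 1.

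Abcb1a held 2.07, 3.55 and 3.83 CPM in C57BL/6J controls at 6 h and 7.02, 7.23 and 8.24 CPM at 24 h, against 6.17, 10.1 and 5.15 CPM and 18.4, 9.99 and 13.9 CPM in DBA/2J. The times were apart in C57BL/6J and overlapped by 1 library in DBA/2J. Its rise with time was 1.87-fold (log2 fold change 0.90 ± 0.20, edgeR adjusted p = 0.00121), and the fall against the 24 h control 2.51-fold in normoxia (adjusted p = 8.55e-07) and 4.36-fold in normoxia-hyperoxia (adjusted p = 1.42e-07). Abcb1a was lower in normoxia-hyperoxia than in normoxia at the threshold (1.73-fold, adjusted p = 0.00192). By strain it passed in DBA/2J (adjusted p = 0.00105) and not in C57BL/6J (0.287), where the libraries overlapped, and the difference between strains did not pass (0.138). Whether Abcb1a and Abcb1b differ in this comparison was not tested, and they share sequence.

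Mfsd2a, the lysophospholipid carrier, had the narrowest range. C57BL/6J controls held 14.1, 16 and 13.2 CPM at 6 h and 7.91, 5.93 and 7.75 CPM at 24 h, and DBA/2J controls 17.8, 14.5 and 15 CPM and 12.9, 11.5 and 11.2 CPM. Every 24 h control was below every 6 h control of its strain. In normoxia it held 18.2, 39.8 and 17 CPM in C57BL/6J and 22, 19.6 and 20.5 CPM in DBA/2J, and in normoxia-hyperoxia 15.9, 13 and 16.2 CPM and 10.2, 14.9 and 17.5 CPM. C57BL/6J normoxia replicate 2 stood apart from its group. Mfsd2a fell 1.9-fold with time (log2 fold change -0.92 ± 0.10, edgeR adjusted p = 1.15e-06) and was 2.98-fold higher in normoxia than in the 24 h control (log2 fold change 1.57 ± 0.20, adjusted p = 1.57e-05). It was also 1.77-fold higher in normoxia-hyperoxia (log2 fold change 0.83 ± 0.13, adjusted p = 3.58e-05), the only member called above its 24 h control there. By strain this passed in C57BL/6J (1.26 ± 0.18, adjusted p = 3.08e-05) and not in DBA/2J (0.40 ± 0.18, adjusted p = 0.0691), where the libraries overlapped, and the difference between strains did not pass (adjusted p = 0.116). From normoxia to normoxia-hyperoxia it fell 1.66-fold (adjusted p = 0.00825), with an adjusted p of 0.0454 in C57BL/6J and 0.053 in DBA/2J.

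The drug comparisons ask whether exposure to a nephrotoxic agent alters the transporters through which such agents pass. None of the 9 members passed the edgeR test for either drug at either time. For tunicamycin at 6 h, 0% of 16551 genes passed, 281 genes had an unadjusted p under 0.05, and DESeq2 called 0. For cyclosporin A at 6 h, 0% of 16538 genes passed (734 at an unadjusted p under 0.05, and 51 by DESeq2), and at 24 h 0% of 16887 (1107, and 22 by DESeq2). For tunicamycin at 24 h, 1.38% of 16905 genes passed (2174 at an unadjusted p under 0.05, and 527 by DESeq2). No member had a difference between strains in its drug response: 0% of all genes did for tunicamycin at 6 h, 0% for tunicamycin at 24 h, 0% for cyclosporin A at 6 h and 0% for cyclosporin A at 24 h, and no member had an unadjusted p under 0.05 in any of the 4. DESeq2 called none of them either.

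**Figure D4:**
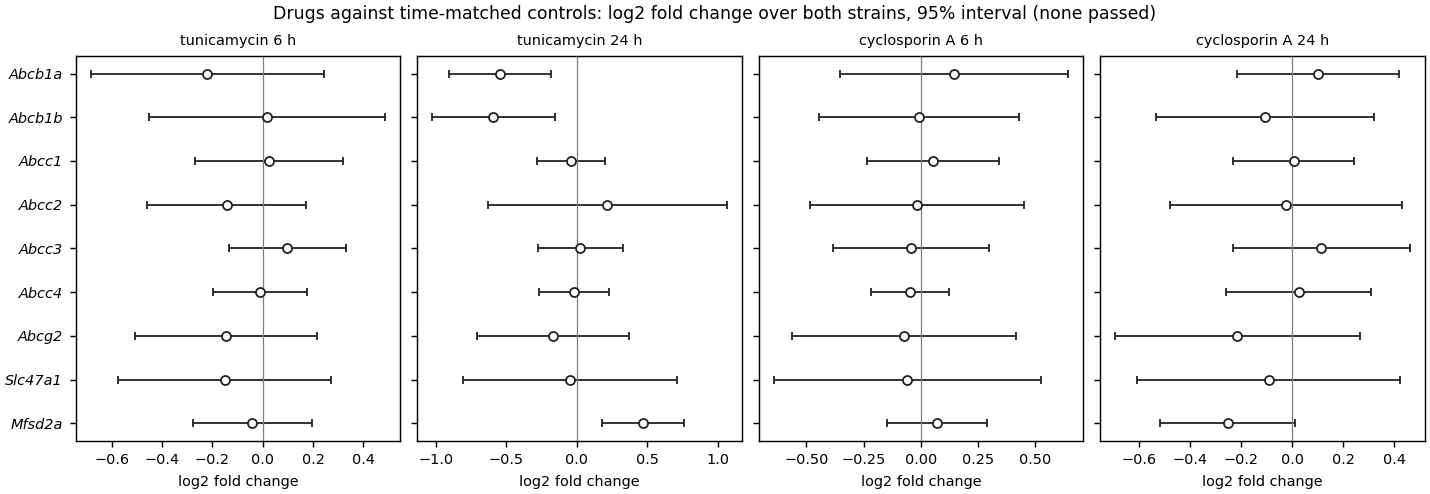
Log2 fold change of each transporter over both strains with its 95% interval, for tunicamycin and cyclosporin A against the control of the same time. Open circles did not pass an adjusted p under 0.05; at 24 h of tunicamycin the intervals of Abcb1a, Abcb1b and Mfsd2a lie off 0 before adjustment. Axes differ in range between panels.

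At 24 h of tunicamycin, 3 members had an unadjusted p under 0.05. Mfsd2a held 8.79, 13 and 6.89 CPM in treated C57BL/6J slices and 16.8, 18.6 and 15.3 CPM in treated DBA/2J slices. All 3 treated DBA/2J libraries were above the 3 controls of their strain, and the C57BL/6J sets overlapped. The log2 fold change was 0.47 ± 0.14 (1.39-fold, 95% interval 0.18 to 0.76, edgeR adjusted p = 0.123). The call turned with the processing: the adjusted p was 0.047 with DESeq2, 0.0182 without a filter on low counts and 0.034 without C57BL/6J tunicamycin 24 h replicate 3. At 6 h the log2 fold change of Mfsd2a was -0.04 ± 0.11.

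Both P-glycoprotein genes had lower means at 24 h of tunicamycin. Abcb1a held 5.76, 4.67 and 6.16 CPM in C57BL/6J and 12.1, 6.82 and 7.97 CPM in DBA/2J, with a log2 fold change of -0.55 ± 0.17 (95% interval -0.91 to -0.19, edgeR adjusted p = 0.144). The treated C57BL/6J libraries were all below their controls, and the DBA/2J libraries overlapped theirs. Abcb1b held 7.59, 10.9 and 5.94 CPM and 22.8, 18 and 15.2 CPM, with a log2 fold change of -0.59 ± 0.20 (95% interval -1.03 to -0.16, adjusted p = 0.201). Its treated libraries overlapped the controls in both strains. The summed level of the 4 injury markers was also lower in treated slices, 215 to 299 CPM against 392 to 451 CPM in C57BL/6J, and 299 to 581 against 509 to 1080 CPM with overlap in DBA/2J. None of the 4 passed the test (median log2 fold change -0.60), and their part in the P-glycoprotein values was not tested. Here too a call depended on the processing: DESeq2 called Abcb1b (adjusted p = 0.0479) and not Abcb1a (0.0571), while without a filter on low counts edgeR called Abcb1a (0.0332) and not Abcb1b (0.507). The other 6 members had log2 fold changes from -0.17 for Abcg2 to 0.22 for Abcc2. Treated C57BL/6J libraries differed widely among themselves: replicates 1, 2 and 3 held 23.3, 44.8 and 8.06 CPM of Slc47a1 and 103, 220 and 34.7 CPM of Abcc2. The proximal tubule markers had the same order, with sums of 548, 1280 and 241 CPM. Their part in the spread of both genes was not tested.

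With cyclosporin A, a substrate of P-glycoprotein, the log2 fold change of Abcb1a was 0.14 ± 0.23 at 6 h (95% interval -0.36 to 0.64) and 0.10 ± 0.15 at 24 h (-0.22 to 0.42). That of Abcb1b was -0.01 ± 0.20 at 6 h (-0.45 to 0.43) and -0.11 ± 0.19 at 24 h (-0.53 to 0.32). At 24 h treated C57BL/6J slices held 9.32, 7.63 and 6.95 CPM of Abcb1a and 13.3, 10.9 and 8.44 CPM of Abcb1b, and treated DBA/2J slices 17.4, 12.8 and 16.7 CPM and 36.5, 25.3 and 24.1 CPM. Treated and control libraries overlapped for all 9 members in both strains at both times. The 24 h interval nearest to leaving 0 was that of Mfsd2a (log2 fold change -0.25 ± 0.12, 95% interval -0.52 to 0.01).

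The strain comparisons ask how far the founders of the panel differ in these genes. DBA/2J and C57BL/6J differed in 6 of 9 members in the 6 h control (26.2% of all genes: 13.6% higher and 12.7% lower in DBA/2J), with 4 higher and 2 lower in DBA/2J. Without DBA/2J control 6 h replicate 2, 3 members passed at 6 h. They differed in 7 in the 24 h control (22.2%: 13.9% higher, 8.27% lower), with 5 higher and 2 lower. In normoxia the count was 6 (46.8%: 28.3% higher, 18.5% lower), with 4 higher and 2 lower, and in normoxia-hyperoxia 6 (25.7%: 14.3% higher, 11.3% lower), with 5 higher and 1 lower. Slc47a1, Abcg2 and Abcb1b were higher in DBA/2J and Abcc1 was lower in all 4. The submitters' processing notes name the same genome, GRCm38, for the reads of both strains. The part of sequence differences between the strains in these values was not tested.

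**Figure D5:**
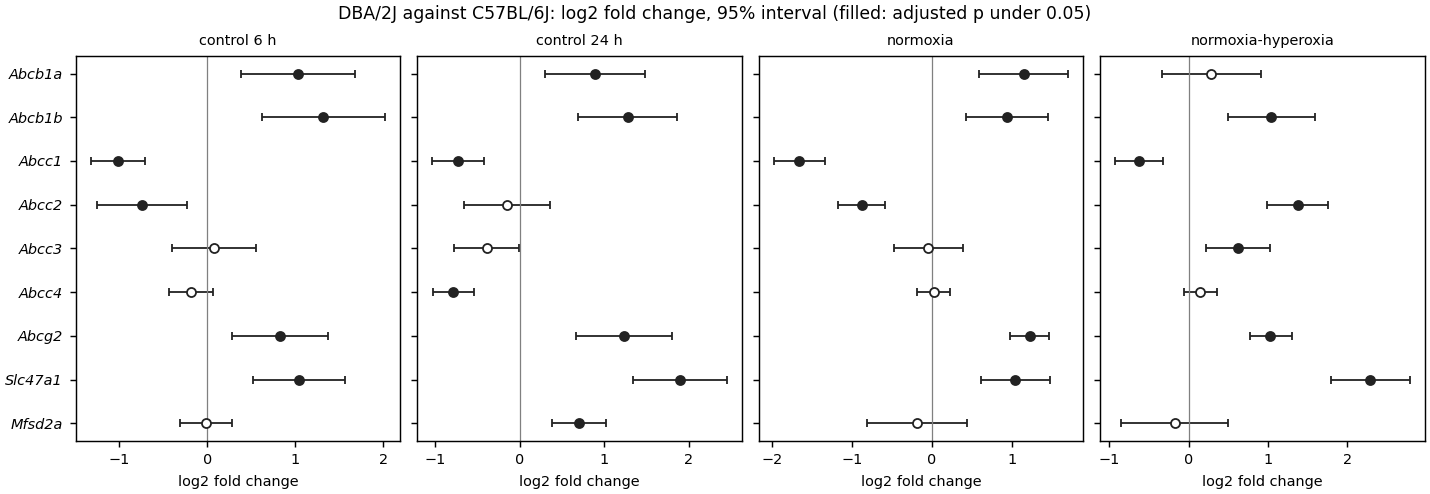
Log2 fold change of DBA/2J against C57BL/6J for each transporter with its 95% interval, in 4 conditions. Filled circles passed an adjusted p under 0.05 and open circles did not; Slc47a1, Abcg2 and Abcb1b lie to the right of 0 and Abcc1 to the left in every panel, and Abcc2 changes side between normoxia and normoxia-hyperoxia.

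Slc47a1 was 2.06-fold higher in DBA/2J at 6 h (log2 1.04 ± 0.24, edgeR adjusted p = 0.00789), 3.72-fold at 24 h (adjusted p = 0.000279), 2.06-fold in normoxia (adjusted p = 0.00109) and 4.89-fold in normoxia-hyperoxia (adjusted p = 1.72e-05). No DBA/2J library of Slc47a1 overlapped a C57BL/6J library in any of the 4 conditions. With all 48 libraries in one fit, the differences of Slc47a1 at 6 h (adjusted p = 0.0575) and in normoxia (0.051) did not pass. Abcg2 was 1.78-fold, 2.34-fold, 2.34-fold and 2.05-fold higher in the same order. The difference of Abcg2 at 6 h (adjusted p = 0.0299) was lost on leaving out C57BL/6J control 6 h replicate 2 (0.0985) or any 1 of the 3 DBA/2J 6 h controls (0.0504 to 0.0977). The proximal tubule markers were also higher in DBA/2J: 5 of 8 at 6 h, 8 of 8 at 24 h, and 6 of 8 in each oxygen condition. Their part in these strain differences was not tested, nor was that of the shifts that follow. Endothelial markers were lower in DBA/2J, 5 of 5 at 6 h and 3 of 5 at 24 h and in normoxia, and none passed in normoxia-hyperoxia. Podocyte markers were lower too, 2 of 3 at 6 h, at 24 h and in normoxia, and none passed in normoxia-hyperoxia. The markers of the loop of Henle and distal tubule and of the collecting duct were lower in normoxia, 4 of 4 each, and in the other conditions 1 loop marker was higher at 24 h and 1 collecting duct marker lower at 6 h. Injury markers were higher, 3 of 4 in normoxia-hyperoxia and 1 of 4 in each other condition. Fibroblast and pericyte markers were lower in normoxia (2 of 3) and in normoxia-hyperoxia (1 of 3). Of the 2 liver and gut markers tested, 2 were lower at 6 h and 1 in normoxia, and 1 was higher in normoxia-hyperoxia. Immune markers were higher at 24 h (2 of 5) and in normoxia-hyperoxia (5 of 5) and lower in normoxia (3 of 5). The mitochondrial share of counts was 15.4% in C57BL/6J and 8.16% in DBA/2J at 6 h, 6.82% and 3.52% at 24 h, 23.9% and 12.3% in normoxia, and 14.1% and 13.7% in normoxia-hyperoxia (means, n = 3).

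Abcb1b was 2.5-fold higher in DBA/2J at 6 h (edgeR adjusted p = 0.0102), 2.42-fold at 24 h (0.00435), 1.92-fold in normoxia (0.00507) and 2.06-fold in normoxia-hyperoxia (0.00744, and 0.0505 without DBA/2J normoxia-hyperoxia replicate 1). Abcb1a was higher in DBA/2J in normoxia (2.22-fold, adjusted p = 0.00224) and at both control times (2.04-fold at 6 h and 1.85-fold at 24 h), but not at the threshold in normoxia-hyperoxia (log2 0.28 ± 0.29, adjusted p = 0.514). The calls for Abcb1a in the controls were fragile: at 6 h (adjusted p = 0.0225) the call was lost without DBA/2J replicate 2 (0.111) or C57BL/6J replicate 1 (0.0576), and at 24 h (0.0323) without any 1 of 5 of the 6 libraries compared. The highest adjusted p at 24 h was 0.156, without DBA/2J control 24 h replicate 1.

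Abcc1 was lower in DBA/2J by 2.02-fold at 6 h (edgeR adjusted p = 0.000166), 1.66-fold at 24 h (0.00201), 3.17-fold in normoxia (1.42e-06) and 1.54-fold in normoxia-hyperoxia (0.00504). Its libraries were apart between strains in each of the 4 conditions. Abcc4 was lower in DBA/2J in the 24 h control (1.73-fold, adjusted p = 0.000189), and its log2 differences elsewhere lay between -0.19 and 0.15 without passing. Abcc2 reversed: it was 1.84-fold lower in DBA/2J in normoxia (adjusted p = 0.000153) and 2.6-fold higher in normoxia-hyperoxia (8.28e-05). Its call in the 6 h control (1.67-fold lower in DBA/2J, adjusted p = 0.0374) was lost on leaving out any 1 of the 6 libraries compared (0.0548 to 0.123) and with all 48 libraries in the fit (0.134). Abcc3 was higher in DBA/2J in normoxia-hyperoxia alone among the 4 conditions (1.54-fold, adjusted p = 0.0264). That call was lost without any 1 of C57BL/6J replicates 1 and 3 and DBA/2J replicates 1 and 2 (0.0518 to 0.106). Mfsd2a was higher in DBA/2J in the 24 h control (1.62-fold, adjusted p = 0.00344), and its other 3 strain differences did not pass.

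Across the 16 group means of log2 CPM, Slc47a1 and Abcg2 ran together (Pearson r = 0.985), as did Abcc3 and Abcc4 (0.975) and, less closely, Abcb1a and Abcb1b (0.852). Abcc4 and Mfsd2a ran against each other (-0.869). The genes most like Abcg2 among all others were Enpp6 (r = 0.997) and Lrp2 (0.996), the endocytic receptor megalin and one of the proximal tubule markers. Those most like Slc47a1 were Fads2 (0.996) and Slc23a1 (0.994), a vitamin C carrier. For Abcc2 they were Car9 (0.959), carbonic anhydrase IX, a well-known target of hypoxia-inducible factor, and Cd63-ps (0.906). For Abcc4 they were Blvrb (0.996), biliverdin reductase B, and Pgd (0.992), an enzyme of the pentose phosphate pathway. Abcc3 was most like Heatr1 (0.993) and Gsdma (0.992), Abcc1 like Atf7 and Rps3a1 (both 0.992), and Abcb1b like Cdt1 (0.982) and Armc6 (0.974). Abcb1a was most like Arap2 (0.958) and Nln (0.933), and Mfsd2a like Atp5g1 (0.93) and Rita1 (0.926). These correlations describe 16 means that come from the same libraries for every gene.

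Among 20 other ABC pumps and organic solute carriers, 16 were tested for culture time: 1 rose and 9 fell, beside 34.7% and 37.4% of all genes. The uptake carriers that feed the apical pumps were among those that fell, with log2 fold changes of -3.00 ± 0.22 for Slc22a2 (OCT2, the basolateral partner of MATE1) and -2.69 ± 0.25 for Slc22a8 (OAT3), beside -3.89 ± 0.26 for Abcc6. The 1 that rose, Abcc12, had at most 11 counts in any control library and 0 in all C57BL/6J libraries at 6 h. In normoxia against the 24 h control 10 of 17 were higher and 5 lower (42.4% and 39.7% of all genes). The highest were Abcc6 (5.26 ± 0.16), Slco4c1 (4.52 ± 0.47) and Slc22a2 (4.40 ± 0.17), and the lowest, beside Abcc12, were Abcc8 (-2.09 ± 0.44) and Atp8b1 (-1.74 ± 0.10). In normoxia-hyperoxia against the 24 h control 4 of 17 were higher and 6 lower (34.1% of all genes each way), with Slco4c1 at 2.58 ± 0.34 and Slc22a6 (OAT1) at -1.51 ± 0.19. Abcc12, among the lower genes, had 0 counts in all normoxia-hyperoxia libraries. Against normoxia 4 of 15 were higher and 9 lower (37% and 36.5% of all genes), and Slc22a6 (-5.26 ± 0.17), Slc22a2 (-5.20 ± 0.22) and Slc22a8 (-5.10 ± 0.20) fell about as far as Slc47a1 (-5.12 ± 0.17). Slc22a6 is also one of the proximal tubule markers.

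Of 20 regulators and apical scaffold genes, 19 were tested, and the shares of all genes are those just given. With culture time 3 rose and 13 fell: Msn (moesin, 1.36 ± 0.11), Trp53 (1.32 ± 0.07) and Keap1 (0.54 ± 0.07) rose, and the bile acid receptor Nr1h4 (-2.69 ± 0.14), the scaffold Pdzk1 (-2.34 ± 0.15) and the hepatocyte nuclear factor Hnf4a (-2.27 ± 0.17) fell furthest. In normoxia against the 24 h control 11 were higher and 7 lower, led by Hnf4a (3.59 ± 0.16), Pdzk1 (3.13 ± 0.12) and Nr1h4 (3.09 ± 0.16) on one side and Msn (-2.16 ± 0.07), Trp53 (-1.51 ± 0.06) and Hif1a (-1.31 ± 0.07) on the other. In normoxia-hyperoxia against normoxia 8 were higher and 11 lower, among them Ezr (ezrin, 1.85 ± 0.08), Hif1a (1.69 ± 0.07), Hnf4a (-3.00 ± 0.15) and Pdzk1 (-2.71 ± 0.13). Against the 24 h control 11 were higher and 5 lower in normoxia-hyperoxia. In the drug comparisons none of either list passed at either time. All values of this and the preceding paragraph are log2 fold changes ± SE from edgeR over both strains.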

How the data were processed

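RNA-seq counts of mouse kidney slices were used. Per the labels' protocols, stranded mRNA libraries were prepared. The submitters' processing notes name bcl2fastq 2.20.0, FastQC 0.11.8, STAR 2.7.9a, featureCounts 1.5.1 and GRCm38; the annotation release and strand setting are not given in the sources used here. The authors deposited whole-number counts per gene without normalization. Gene IDs were matched to symbols by table (55141 of 55487). Groups and replicates came from the labels.

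For each comparison, its 12 libraries in 4 groups entered a separate fit in edgeR 4.0.16 (R 4.3.3, limma 3.58.1): TMM factors, filterByExpr, robust quasi-likelihood F tests and Benjamini-Hochberg adjustment over all genes tested, with the threshold at 0.05. SE came from the fold change and F statistic. The pipeline was tested on simulated data. CPM used library totals. Alternatives were RLE factors, no filter, DESeq2 1.42.0, all 48 libraries in one fit, a replicate block, leaving out each library, and, chosen after seeing the data, library totals alone. All 9 members were named whatever their result; from each pathway list the called genes with the largest change in each direction, up to 3, were named. Members and lists were chosen with earlier results of these data known. For the genes most like a member, predicted genes and those without a symbol were passed over. No library pair of a group agreed within sampling noise (lowest chi-square per degree of freedom 5.76).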

Additional observations from a re-analysis of the deposited data

Results flagged for a closer look

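In 7 cases the change of a transporter in an oxygen comparison differed between the strains by the test of that difference. The test was the edgeR interaction, DBA/2J minus C57BL/6J, on the log2 scale. In the cases against the 24 h control, oxygen cannot be told apart from the labelled set. In normoxia against the 24 h control these were Abcc1 (-0.93), Abcc4 (0.82) and Slc47a1 (-0.83). In normoxia-hyperoxia against the 24 h control it was Abcc4 (0.96). In normoxia-hyperoxia against normoxia these were Abcc1 (1.04), Abcc2 (2.26) and Slc47a1 (1.24). The direction of change was the same in both strains in all 7, and the difference is one of size.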

How the results depend on the processing

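Results were recomputed for 20 counts of members called and 72 log2 fold changes. RLE factors changed no direction and no call among them. Direct scaling by library totals, chosen after seeing the data, shifted the median log2 fold change of all genes by over 0.1 in 7 comparisons (0.15 for strain at 6 h, 0.21 for culture time and -0.11 for its interaction, -0.27 for normoxia and -0.11 for its interaction, -0.17 for normoxia-hyperoxia and 0.17 for the interaction between the oxygen conditions). It turned no called member's direction, ended the strain call of Abcc2 at 6 h (-0.60), added Abcc2 to the members called for culture time (9 in place of 8) and gave 1 call for the interaction with time. Without a filter on low counts, 2 members had an interaction with time, 5 with normoxia and 4 with normoxia-hyperoxia against the 24 h control, and 2 were called for tunicamycin at 24 h. DESeq2 gave 1, 3 and 2 for the interaction with time, that with normoxia-hyperoxia and tunicamycin at 24 h. With all 48 libraries in the fit, 6 of the 72 log2 fold changes no longer passed: strain at 6 h for Abcc2 and Slc47a1 (4 members left), strain in normoxia for Slc47a1 (5 left), normoxia-hyperoxia against normoxia for Abcc4 (7 left), and the interactions of Slc47a1 with normoxia and between the oxygen conditions (adjusted p = 0.137 by edgeR for the last). In that fit 2 members had the interaction with normoxia-hyperoxia, and the log2 fold change of Abcb1b for cyclosporin A at 6 h turned from -0.01 to 0.001. Same-numbered libraries deviated together in 21 of 48 pairs (correlation over 0.1, range -0.101 to 0.302). All 3 pairs of a strain did so for tunicamycin at 24 h in DBA/2J, for normoxia-hyperoxia against the 24 h control in C57BL/6J and for normoxia-hyperoxia against normoxia in DBA/2J, but in no comparison did all 6. The numbers were therefore not used as pairs, and whether they mark a shared source is not known. Each library had 3 numbers to match. Of the 6 pairs of a comparison, 5 correlated best with their own number for tunicamycin at 6 h and both normoxia-hyperoxia comparisons. The number was 4 for cyclosporin A at 6 h and tunicamycin at 24 h, 3 for culture time and normoxia, and 2 for cyclosporin A at 24 h. With the replicate block, members called were 1 for strain at 6 h, 3 for the interaction with normoxia-hyperoxia and 1 for tunicamycin at 24 h, Abcb1a (adjusted p = 0.0221 by edgeR). The block took replicate 1 of each strain as its reference. Its strain differences therefore compare the replicate 1 levels of the strains, not their means, and cannot show whether the strain calls hold under pairing. With it 9 of the 72 log2 fold changes no longer passed. All were strain differences but the interaction of Slc47a1 with normoxia (adjusted p = 0.0567 by edgeR). At 6 h Abcc1 alone of the members called for strain still passed. Slc47a1 had an adjusted p of 0.0642 there by edgeR, and Abcb1b 0.0848 at 6 h and 0.064 at 24 h. Leaving out each library in turn gave 3 to 6 members for strain at 6 h, lowest without DBA/2J control 6 h replicate 2, 0 to 1 for the interaction with time, 1 to 2 for the interaction with normoxia-hyperoxia and 0 to 1 for tunicamycin at 24 h. It took the log2 fold change for cyclosporin A at 24 h from 0.0 to 0.22 for Abcb1a and from -0.22 to 0.059 for Abcb1b, at 6 h from -0.041 to 0.31 for Abcb1a and from -0.15 to 0.16 for Abcb1b, and for tunicamycin at 6 h from -0.12 to 0.027 for Mfsd2a. The cause of these changes was not tested. Low counts, down to 13 for Abcb1a and 31 for Abcb1b in a library, limit the precision for these genes.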
